A study of Mus musculus with 12 samples.

Results

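The SoxB and SoxC factors are 7 transcription factor genes: Sox1, Sox2, Sox3 and Sox21 of the SoxB class, and Sox4, Sox11 and Sox12 of the SoxC class. They were taken by gene symbol from the deposited table, where each symbol had 1 gene identifier, so they are 7 of 40690 genes. All 7 passed the filter on low counts. Polyadenylated RNA of 12 whole brains of C57BL/6J mouse embryos was sequenced at E14.5, in 4 groups of 3. The LC1 knockouts (embryos 7, 22 and 71) lack LC1, a conserved non-coding element upstream of Pou3f2, and were set against LC1 wild types (6, 26 and 73). All LC1 embryos are female. The RKI homozygotes (A1, A10 and A18) carry a human sequence variant knocked in at this element and were set against RKI wild types (A2, A9 and A16). Each RKI group has 1 female, A10 or A9, and 2 males. No group received a treatment, and the labels name no allele that mutants and wild types share. Neither the knockout's zygosity nor the litter of an embryo is labelled, although mutants and wild types were matched by litter per the labels' protocol. P-values of the group comparisons set a difference against how much embryos of the same group varied. Permutation p-values compare a correlation with those obtained when embryos are shuffled.

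Sox proteins bind DNA through an HMG box. In the embryonic brain Sox1, Sox2 and Sox3 are known for keeping dividing neural progenitors in their undifferentiated state, often bound beside a POU protein such as that of Pou3f2, while Sox21 is a repressor that counteracts them, known mostly from chick neural tube. Sox4, Sox11 and Sox12 are highest in newborn neurons, where Sox4 and Sox11 are known for switching on neuronal genes such as Tubb3 and Dcx. Tead2 is listed here as a further SoxC target, and both Sox classes bind similar DNA motifs. In bulk RNA, fewer cells of a type and less RNA per cell cannot be told apart, so the levels below mix the share of progenitors and neurons with the level in each.

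The sequence of the HMG box divides the 7 genes into their classes. The following lines show, 5′ to 3′ on the coding strand, the 60 coding bases that open its conserved core, from GENCODE M21 transcripts on GRCm38, and capitals mark the bases that differ from Sox2.
Sox2 (chr3:34650548-34650607, plus strand): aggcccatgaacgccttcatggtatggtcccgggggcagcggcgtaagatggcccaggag
Sox1 (chr8:12396517-12396576, plus strand): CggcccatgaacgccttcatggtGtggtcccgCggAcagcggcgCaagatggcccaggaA
Sox3 (chrX:60892936-60892995, minus strand): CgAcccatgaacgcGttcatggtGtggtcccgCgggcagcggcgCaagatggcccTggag
Sox21 (chr14:118235549-118235608, minus strand): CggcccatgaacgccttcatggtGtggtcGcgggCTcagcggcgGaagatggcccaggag
Sox4 (chr13:28952782-28952841, minus strand): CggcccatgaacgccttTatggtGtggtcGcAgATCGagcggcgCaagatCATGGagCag
Sox11 (chr12:27342199-27342258, minus strand): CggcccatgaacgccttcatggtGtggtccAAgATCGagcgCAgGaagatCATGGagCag
Sox12 (chr2:152397516-152397575, minus strand): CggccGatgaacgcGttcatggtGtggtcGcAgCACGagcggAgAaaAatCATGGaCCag
Sox1 and Sox21 differed from Sox2 at 6 of these bases and Sox3 at 7, while Sox4 differed at 16, Sox11 at 17 and Sox12 at 20. Over 216 coding bases of the box, identity was 87.0% to 89.8% between SoxB genes and 84.7% to 90.3% between SoxC genes, but 66.7% to 72.2% across the classes. The longest run shared by a pair of transcripts was 48 bases, between Sox4 and Sox11, and 45 bases between Sox1 and Sox3. Only a read that fits inside such a run would match both genes exactly, and the read length is not given here.

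Each member is 1 exon in this annotation and lies on its own chromosome. Sox1 lies on chromosome 8 at 12395295 to 12400126, plus strand, and Sox2 on chromosome 3 at 34650405 to 34652461, plus strand. Sox3 is X-linked, at 60891366 to 60893430 on the minus strand. Sox21 lies on chromosome 14 at 118233232 to 118237030, Sox4 on chromosome 13 at 28948919 to 28953713, Sox11 on chromosome 12 at 27334264 to 27342574 and Sox12 on chromosome 2 at 152393611 to 152398063, all 4 on the minus strand. Antisense transcripts overlap 2 of them, and the strand setting used for counting was not given in the sources used here. Gm26735 covers 2616 of the 4795 exon bases of Sox4 on the opposite strand and had 0 to 1 counts. Gm4675 covers 713 of the 3799 exon bases of Sox21 on the opposite strand and had 9 to 26 counts.

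The SoxC genes were the more abundant class in every embryo. Per length, Sox11 had the highest level, with 221 ± 13.7 RPKM (SD over 12 embryos, as all values in this paragraph), followed by Sox4 with 158 ± 9.20 RPKM and Sox12 with 94.9 ± 3.48 RPKM. Sox2 was the highest SoxB gene, with 50.0 ± 3.38 RPKM. Sox1 had 22.9 ± 2.22 RPKM and Sox3 22.5 ± 2.78 RPKM, and Sox21 was lowest with 6.83 ± 0.796 RPKM. Neighbours in this order had ranges apart from each other over the 12 embryos, except Sox1, at 19.8 to 28.4 RPKM, and Sox3, at 18.8 to 26.5 RPKM, whose levels did not differ beyond their spread. The depth behind these levels ran from 438 to 736 counts per library for Sox21 to 32545 to 50954 for Sox11. In the library with the fewest counts of each gene, counting error was a coefficient of variation of 4.78% for Sox21 and 0.554% for Sox11. Between embryos the coefficient of variation of CPM (counts over a library total scaled by TMM) was smallest for Sox12 at 4.20% and largest for Sox3 at 11.8%, Sox21 at 11.0% and Sox1 at 9.71%.

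**Figure D1:**
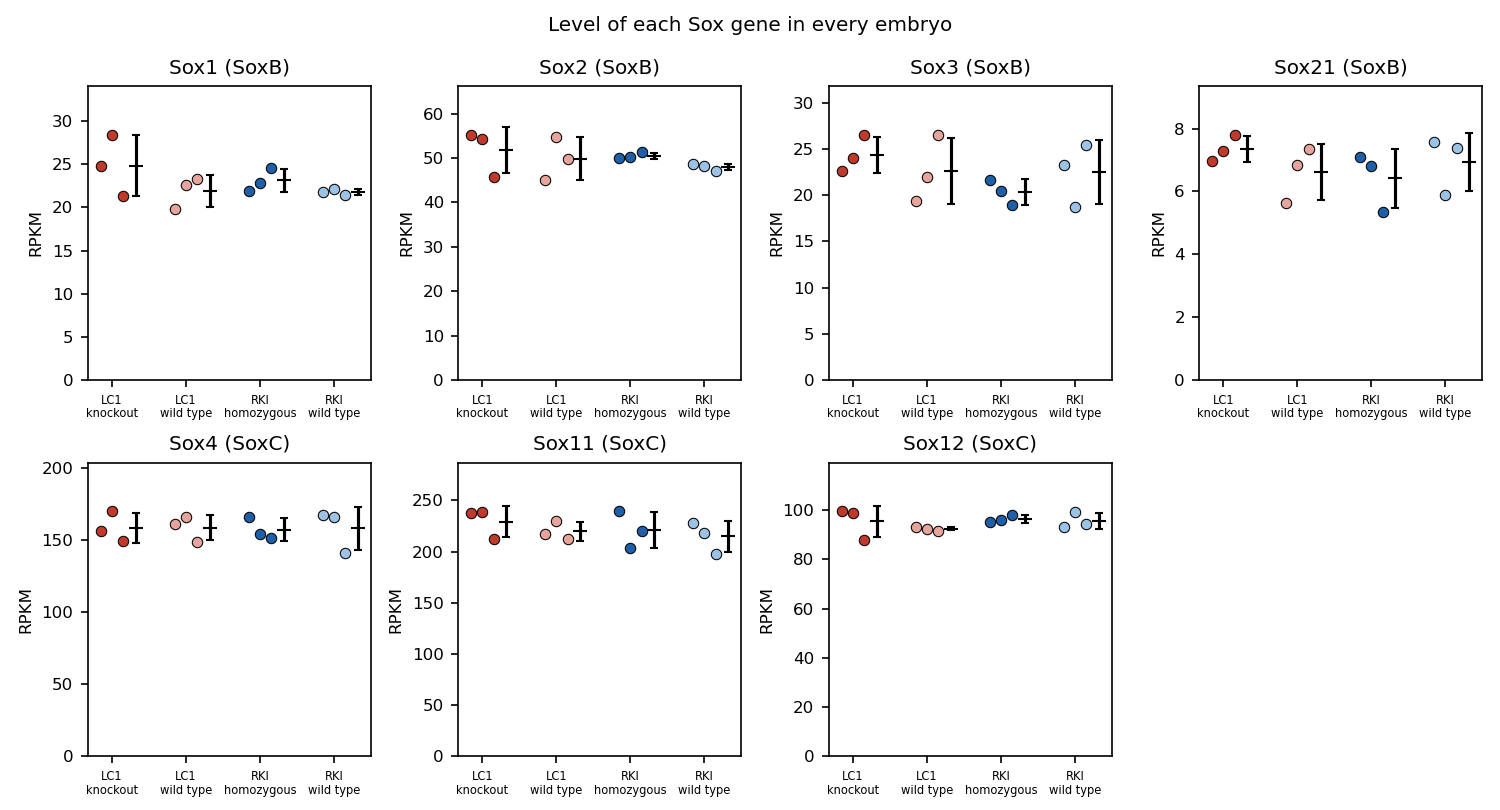
Level of each gene in RPKM (vertical axes, from 0) in the 12 embryos, by group, with the mean and SD of each group of 3 beside its points. Levels differ by gene far more than by group: Sox11 lies between 198 and 239 RPKM and Sox21 between 5.33 and 7.79 RPKM, and within a gene the mutant and wild-type points overlap except for Sox2 in RKI.

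The order of the SoxC genes depended on the table. In the deposited estimates per transcript, Sox4-001 had a mean of 136 RPKM, Sox11-001 77.9 RPKM and Sox12-002 43.5 RPKM, which puts Sox4 above Sox11. Sox2-001 had 42.7 RPKM there, Sox3-001 12.2 RPKM, Sox1-001 11.6 RPKM and Sox21-001 4.75 RPKM. The estimated count was 0.484 of the gene count for Sox11 and 0.629 for Sox12, against 1.18 for Sox4 and 1.17 for Sox2. For the other SoxB genes it was 0.691 for Sox1, 0.743 for Sox3 and 0.956 for Sox21. A further Sox12 transcript was listed at 0 in all 12 libraries. Despite these offsets the estimates followed the gene counts across embryos, with Pearson's r of log2 values of 0.98 for Sox2, 0.97 for Sox1, 0.93 for Sox11 and 0.84 for Sox4, and least for Sox12 at 0.68, as a description over 12 libraries.

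Library totals ran from 18192984 to 26566769 counts. The brain markers fixed for the tissue, among them Pax6, Tubb3, Dcx, Neurod6 and Dlx2, each had at least 1083 counts in every library. Of the defining hindbrain markers, Hoxb2 and Hoxb3 were at 0 and Hoxa2 and Hoxb4 had at most 1 count, and En1 and En2 of the midbrain-hindbrain boundary had 0 to 44 and 0 to 26 counts, although the label says whole brain. RKI wild-type embryo A16 stood apart, with a summed level of 8 proliferation genes of 1216 CPM against 764 to 957 CPM in the other embryos, and LC1 wild-type embryo 6 had the highest summed meninges, choroid plexus, microglia and erythroid markers of the 12.

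In LC1 knockouts all 7 genes had a log2 fold change above 0 relative to LC1 wild types, although that of Sox4, 0.00, turned below 0 when scaled by library totals alone. The differences were small, and 0 of 7 passed the threshold, an adjusted p under 0.05 by edgeR's quasi-likelihood test. Of all 16002 genes tested, 0% passed and 48.6% had a log2 fold change above 0. The largest log2 fold changes were those of Sox1 at 0.19, Sox21 at 0.16 and Sox3 at 0.11, and the other 4 genes were at 0.06 or below. Sox1 was the 1 member of 7 with an unadjusted p under 0.05, against 2.09% of all genes. DESeq2 and limma-voom called 0 of 7 as well. In 0 of 7 genes were the 3 knockouts apart from the 3 wild types, against 3.36% of all genes apart with the knockouts higher and 3.81% with the knockouts lower.

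Sox1, a marker of neural progenitors from the neural plate on, had 122, 137 and 103 CPM in LC1 knockouts 7, 22 and 71, against 97.3, 109 and 112 CPM in LC1 wild types 6, 26 and 73. Knockouts 22 and 7 were the highest Sox1 libraries of the 12, and knockout 71 lay inside the wild-type range. The fold was 1.14, which is 0.19 on the log2 scale with SE 0.0871 and a 95% interval of 0.00 to 0.37, and the adjusted p by edgeR was 1 with an unadjusted p of 0.0452. The authors' deposited table gives 0.19 with an unadjusted p of 0.00788 and an adjusted p of 0.937. The log2 fold change was 0.09 without knockout 22 and 0.29 without knockout 71.

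Sox2, which keeps neural stem cells self-renewing, had 115, 112 and 94.2 CPM in LC1 knockouts, against 94.2, 112 and 102 CPM in LC1 wild types. The groups spanned nearly the same range, with a log2 fold change of 0.06 and SE 0.0752. Sox3, the X-linked SoxB1 gene, had 47.5, 49.4 and 54.6 CPM in LC1 knockouts, against 40.7, 45.1 and 54.4 CPM in LC1 wild types. Wild types 6 and 26 were below all 3 knockouts and wild type 73 was level with the highest of them, for a log2 fold change of 0.11 (SE 0.102). Sox21, the repressor of the class, had 26.9, 27.6 and 29.6 CPM in LC1 knockouts, against 21.7, 25.9 and 27.8 CPM in LC1 wild types. Its log2 fold change was 0.16 with SE 0.114 and an unadjusted p of 0.183, and wild type 73 overlapped the knockouts. Wild type 6 was the lowest LC1 library for all 4 SoxB genes and also had the summed non-neural markers given above, whose part in these differences was not tested. Without it the log2 fold change of Sox1 was 0.13, of Sox2 0.00, of Sox3 0.02 and of Sox21 0.06, while without wild type 73 Sox3 had 0.24 and Sox21 0.24.

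The SoxC genes were nearly level between LC1 groups. Sox4 had 759, 811 and 715 CPM in LC1 knockouts, against 786, 790 and 707 CPM in LC1 wild types, at a log2 fold change of 0.00 (SE 0.0773). Its 95% interval ran from -0.16 to 0.16, or a fold of 0.894 to 1.12. Sox11 had 2001, 1980 and 1760 CPM in LC1 knockouts, against 1840, 1903 and 1749 CPM in LC1 wild types, a log2 fold change of 0.06 with SE 0.0775. Knockouts 7 and 22 were above the 3 wild types and knockout 71 was among them. Sox12 had 450, 438 and 392 CPM in LC1 knockouts, against 422, 410 and 406 CPM in LC1 wild types, a log2 fold change of 0.05 with SE 0.0616. Here knockout 71 was the lowest of the 12 embryos and the other two knockouts were above the wild types.

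In RKI homozygotes the SoxB genes differed in sign: Sox1 and Sox2 were slightly above RKI wild types, and Sox3 and Sox21 slightly below them. Each of their 95% intervals spanned 0, and a difference between these pairs was not tested. By edgeR's quasi-likelihood test 0 of 7 members passed, as did 0% of all genes, and 0 of 7 had an unadjusted p under 0.05, against 1.92% of all genes. DESeq2 and limma-voom called 0 of 7. The log2 fold change was above 0 for 5 of 7 members, against 50.6% of all genes, with that of Sox4, 0.00, below 0 when scaled by library totals alone. Sox2 was the 1 member of 7 whose groups did not overlap, with the homozygotes higher, as for 2.59% of all genes, while 3.07% of genes were apart with the homozygotes lower.

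Sox2 had 103, 103 and 107 CPM in RKI homozygotes A1, A10 and A18, against 99.7, 100 and 95.9 CPM in RKI wild types A2, A9 and A16. Both groups were narrow and lay within the range of the LC1 libraries, with a log2 fold change of 0.08, SE 0.0747, an unadjusted p of 0.285 and an adjusted p of 1 by edgeR. Sox1 had 106, 110 and 121 CPM in RKI homozygotes, against 105, 108 and 103 CPM in RKI wild types. Homozygotes A10 and A18 were above the wild types and A1 between them, with a log2 fold change of 0.09 and SE 0.0865. Sox3 had 44.8, 42.1 and 39.7 CPM in RKI homozygotes, against 48.0, 39.1 and 52.0 CPM in RKI wild types. The female wild type A9 was the lowest of the 6 and the male wild types were the highest, and with the term for sex the log2 fold change was -0.13 (SE 0.101), with -0.24 without A9 and -0.04 without A18. Sox21 had 27.0, 25.8 and 20.6 CPM in RKI homozygotes, against 28.6, 22.6 and 27.8 CPM in RKI wild types. Homozygote A18 was the lowest of the 12 embryos. Sox21 had a log2 fold change of -0.11 (SE 0.113), or 0.04 without A18.

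Sox4 had 797, 736 and 735 CPM in RKI homozygotes, against 800, 801 and 668 CPM in RKI wild types. The log2 fold change was 0.00 (SE 0.0772), and wild type A16 was the lowest embryo of the 12. Sox11 had 1991, 1687 and 1860 CPM in RKI homozygotes, against 1892, 1833 and 1625 CPM in RKI wild types, a log2 fold change of 0.05 with SE 0.0775. A16 was again the lowest of all embryos, beside the proliferation level given above, and without it the log2 fold change of Sox11 was -0.04 and of Sox4 -0.09. Sox12 had 424, 425 and 443 CPM in RKI homozygotes, against 413, 446 and 415 CPM in RKI wild types, a log2 fold change of 0.02 with SE 0.0615.

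**Figure D2:**
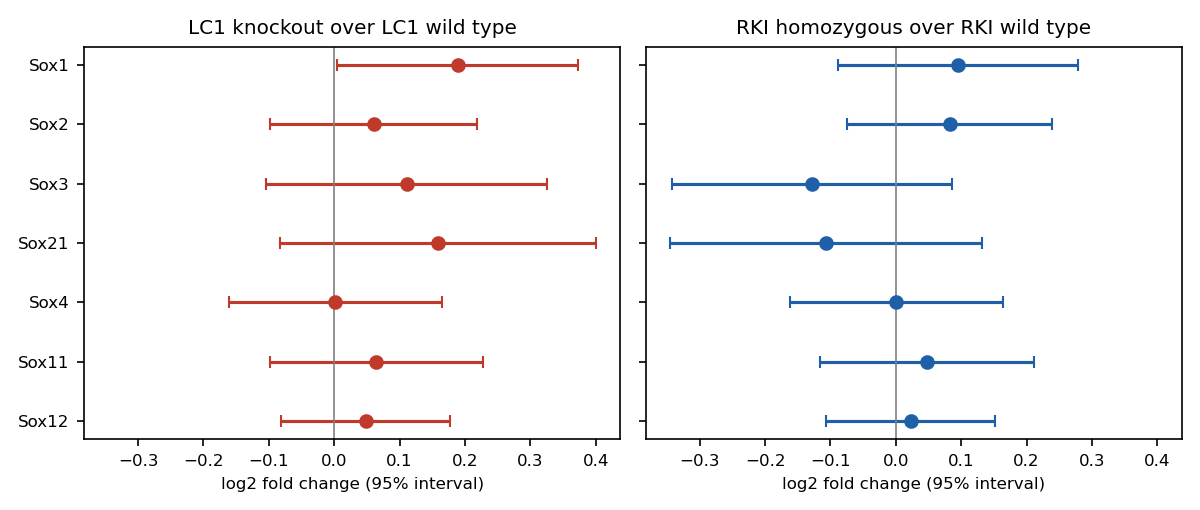
Log2 fold change of each gene (horizontal axes) with its 95% interval, for LC1 knockouts over LC1 wild types on the left and RKI homozygotes over RKI wild types on the right. All 14 intervals lie between -0.35 and 0.40, Sox1 in LC1 is the 1 whose interval begins above 0, at 0.00 after rounding, and Sox3 and Sox21 are above 0 in LC1 and below 0 in RKI.

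Whether the RKI effect differed from the LC1 effect was tested as an interaction, which 0 of 7 members and 0% of all genes passed by edgeR. DESeq2 and limma-voom gave 0 of 7 as well. Of the members 0 of 7 had an unadjusted p under 0.05, against 2.42% of all genes. The largest differences were those of Sox21, -0.27 with SE 0.161 and an unadjusted p of 0.117, and Sox3, -0.24 with SE 0.143 and an unadjusted p of 0.114. The difference was -0.09 for Sox1, 0.02 for Sox2, -0.00 for Sox4, -0.02 for Sox11 and -0.03 for Sox12.

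Between RKI wild types and LC1 wild types 0 of 7 members passed by edgeR, against 0.0125% of all genes, and 0 of 7 had an unadjusted p under 0.05, against 3.89%. On the log2 scale the difference was -0.14 for Sox3, -0.08 for Sox11, -0.06 for Sox2 and 0.07 for Sox12, with SE between 0.0748 and 0.126. That of Sox3 leaned on the term for sex, estimated in RKI alone as LC1 has no males. Without this term it was -0.01, and mean levels were 46.4 CPM in RKI and 46.8 CPM in LC1 wild types. Sox1 at -0.00, Sox21 at -0.00 and Sox4 at 0.01 were close to level. Leaving out 1 library turned the sign of all but Sox11. For males over females within RKI 0 of 7 passed, against 0.05% of all genes, and 0 of 7 had an unadjusted p under 0.05, against 5.18%. The X-linked Sox3 had 0.18 with SE 0.108 and an adjusted p of 0.890 by edgeR, and its value was 0.00 without the female A9 and 0.35 without the female A10. Sox21 had 0.10, Sox11 0.06, Sox12 -0.04, Sox4 -0.03, Sox1 -0.01 and Sox2 -0.00, and leaving out 1 library turned the sign of each of these 6. Transcript estimates gave 0 of 7 tested member transcripts past the threshold in LC1 and in RKI, against 0% of 47772 transcripts in each, with the largest values 0.19 for Sox1-001 in LC1 and -0.22 for Sox3-001 in RKI.

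The balance of the classes, the mean log2 CPM of the 4 SoxB genes minus that of the 3 SoxC genes, was -3.71 ± 0.0551 in LC1 knockouts and -3.80 ± 0.183 in LC1 wild types (SD, n = 3 each). It was -3.84 ± 0.0628 in RKI homozygotes and -3.80 ± 0.162 in RKI wild types (SD, n = 3 each). Both differences, 0.09 in LC1 and -0.04 in RKI, are smaller than the pooled SD of 0.129. The RKI value averages SoxB genes of opposite sign, Sox1 at 0.09 and Sox2 at 0.08 against Sox3 at -0.13 and Sox21 at -0.11. In LC1 the difference was -0.00 without wild type 6 and 0.18 without wild type 73, and in RKI it was 0.04 without wild type A16. As summed levels per length, SoxC RPKM was 4.46 ± 0.0339 times SoxB RPKM in LC1 knockouts and 4.69 ± 0.521 times in LC1 wild types. The same ratio was 4.73 ± 0.228 in RKI homozygotes and 4.73 ± 0.421 in RKI wild types. These ratios rest on gene counts, and the transcript estimates above place genes of both classes lower in RPKM.

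Across embryos the SoxB genes moved in pairs, Sox1 with Sox2 and Sox3 with Sox21. Of the 21 pairs of members, 3 had a Pearson correlation of log2 CPM past an adjusted p of 0.05 over the 12 libraries (two-sided permutation test, 100000 resamples, Benjamini-Hochberg over the 21 pairs). Sox3 and Sox21 followed each other most closely, with r = 0.87, Spearman's rho = 0.92, a permutation p of 7.0e-05 and an adjusted p of 0.00147. Sox3 and Sox21 gave r = 0.92 within the 6 LC1 libraries, with an exact permutation p of 0.00139, and r = 0.85 within the 6 RKI libraries, with an exact permutation p of 0.0347. Without the 2 libraries farthest from the median of Sox3, r was 0.82 with an adjusted permutation p of 0.0206. With group means removed it was 0.86.

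Sox1 and Sox2 formed the second pair, with r = 0.79, rho = 0.87 and an adjusted permutation p of 0.0142. The value was 0.76 within LC1, with an exact permutation p of 0.0847, and 0.89 within RKI, with an exact permutation p of 0.0125. Without the 2 libraries farthest from the median of Sox1, r was 0.72 with an adjusted permutation p of 0.201, and rho was 0.84 with an adjusted permutation p of 0.0377. Sox4 and Sox11, the SoxC genes known to act together in newborn neurons, had r = 0.80, rho = 0.63 and an adjusted permutation p of 0.0142 for r and 0.140 for rho. It was 0.76 within LC1 and 0.83 within RKI, with exact permutation p of 0.0903 and 0.0458. Without A16, r of Sox4 and Sox11 was 0.67 with an adjusted permutation p of 0.180, so the pair did not pass with these 11 libraries.

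**Figure D3:**
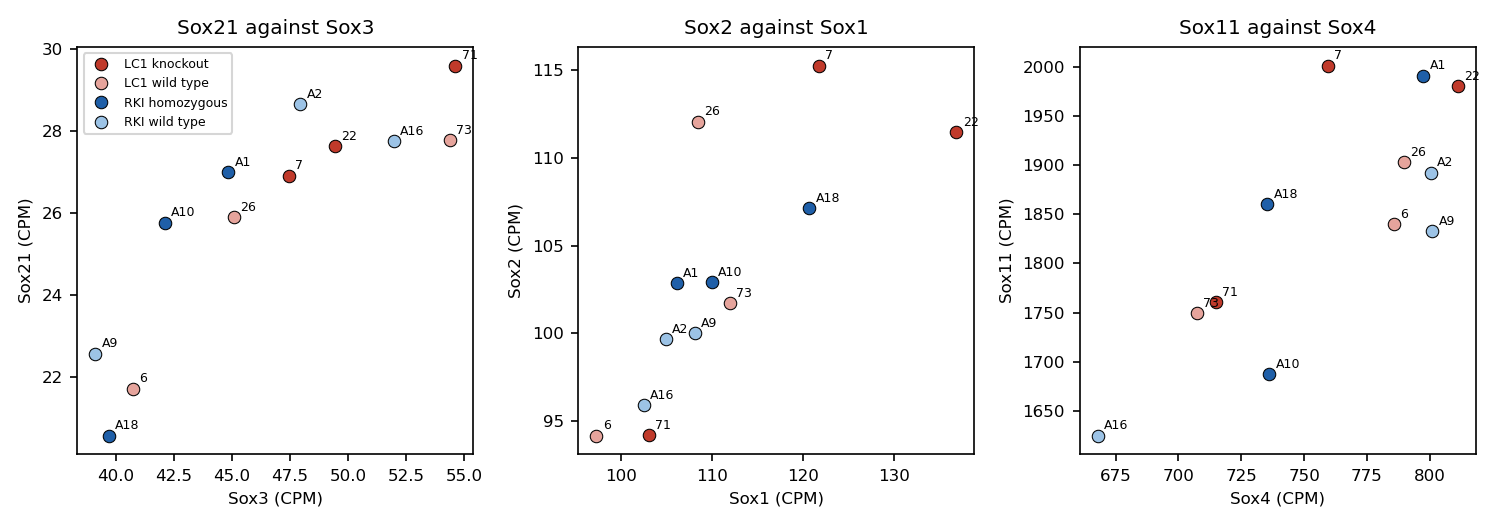
CPM of the 3 pairs of genes that were correlated over 12 embryos, each point 1 embryo with its number, coloured by group. Sox21 follows Sox3 with embryos 6, A9 and A18 low in both, Sox2 follows Sox1 with knockouts 7 and 22 high, and A16 is lowest for Sox4 and Sox11.

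Between the SoxB pairs r of Sox1 or Sox2 with Sox3 or Sox21 was between -0.11 and 0.04 over the 12 libraries. These r were between -0.06 and 0.45 within LC1 and between -0.87 and -0.65 within RKI. Across the classes, Sox2 with Sox11 had r = 0.63 and Sox3 with Sox12 r = -0.63 over the 12 libraries, each with an adjusted permutation p of 0.125. Within LC1, Sox2 with Sox11 had r = 0.82 and Sox11 with Sox12 r = 0.89, both above Sox1 with Sox2. Their exact permutation p were 0.0861 and 0.0278, and neither passed after adjustment. Sox1 and Sox21 had r = 0.45 in LC1, with an exact permutation p of 0.374, and r = -0.87 in RKI, with an exact permutation p of 0.0208. Sox12 was opposite to Sox3 and Sox21 in RKI, with r = -0.92 and an exact permutation p of 0.0167 for Sox3, and r = -0.95 and an exact permutation p of 0.00694 for Sox21. In LC1 these were -0.42 and -0.26, with exact permutation p of 0.410 and 0.656. Within RKI 0 of the 21 pairs passed after adjustment, and the difference between experiments was not tested.

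**Figure D4:**
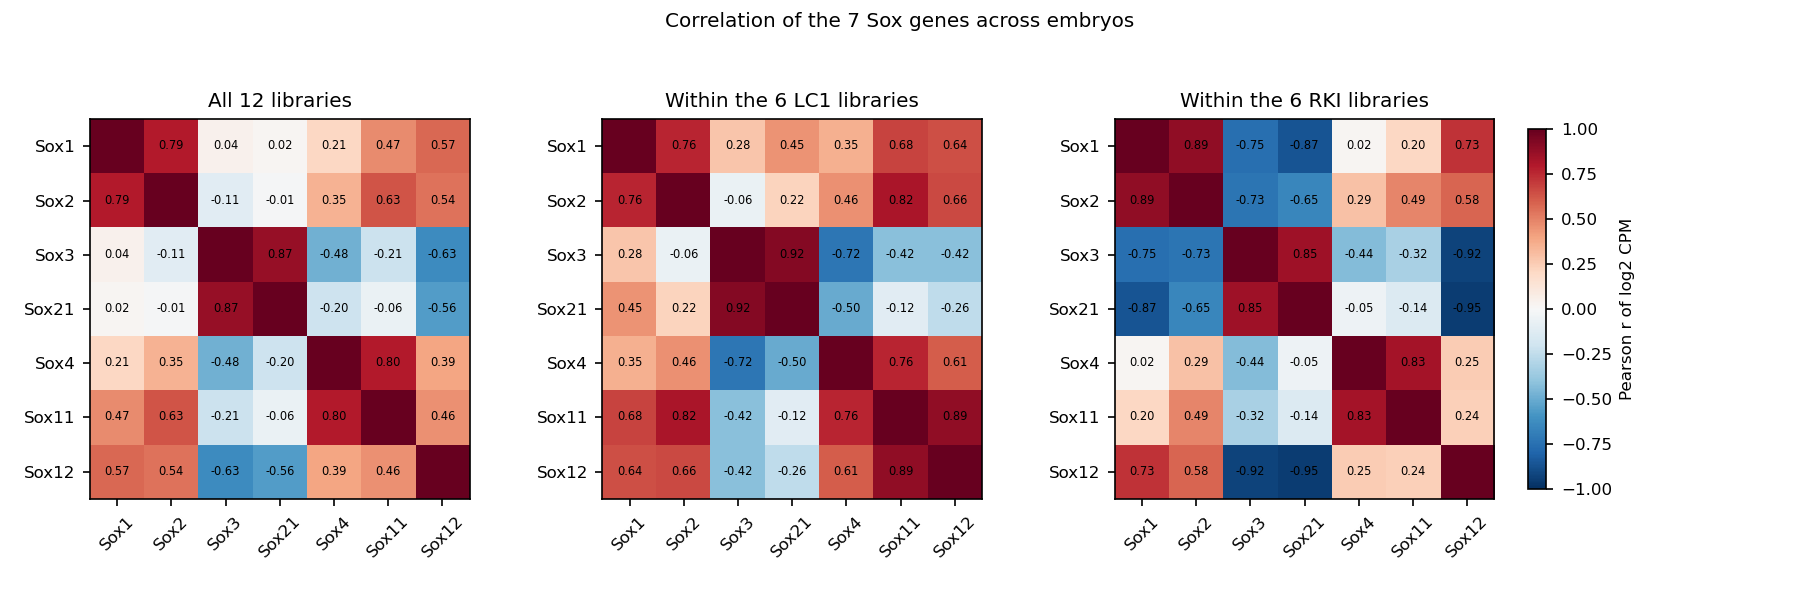
Pearson's r of log2 CPM for every pair of the 7 genes, over all 12 libraries and within the 6 libraries of each experiment, in colour from -1 to 1 with its value. Sox1 with Sox2, Sox3 with Sox21 and Sox4 with Sox11 are positive in all 3 panels, and Sox21 with Sox1 is 0.45 in LC1 and -0.87 in RKI.

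Set among all genes, these partners ranked high but not first. Of 16001 other genes, Sox3 was the 17th closest to Sox21 and Sox21 the 31st closest to Sox3. Sox2 was the 23rd closest to Sox1 and Sox1 the 45th closest to Sox2. Sox4 was the 98th closest to Sox11, and Sox11 the 189th closest to Sox4. The genes most like Sox2 over the 12 libraries were Tlr3 with r = 0.90, which encodes a receptor for double-stranded RNA, Dcaf10 with 0.90, the transcription kinase gene Cdk13 with 0.89, the kinase gene Hipk3 with 0.89 and the Ras exchange factor gene Sos1 with 0.88. Those most like Sox11 were Rnf10 with r = 0.95, Fam8a1 with 0.92, the glutamate dehydrogenase gene Glud1 with 0.90, Magee1 with 0.90 and the AP-1 gene Jund with 0.90. These are descriptions over 12 libraries that share depth and scaling.

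Levels of Sox3 and Sox21 ran against those of early neuronal genes. The summed CPM of 13 genes, among them Tubb3, Dcx, Map2, Elavl3 and the SoxC target Tead2, was compared with each member. The choice was made after seeing the values. So was that of the summed levels of 10 proneural genes and 8 proliferation genes, which makes 21 relations. An adjusted p over these 21 does not cover that choice and is given as a description. How many of all genes had as strong an r with each of these sums was not tested. The values below are therefore not shown to be particular to the members. With the neuronal sum, Sox3 had r = -0.80, rho = -0.85 and an adjusted permutation p of 0.0214, and Sox21 had r = -0.73, rho = -0.79 and an adjusted permutation p of 0.0318. Embryos 6, A9 and A18, of 3 different groups, had the 3 highest neuronal sums, 13561, 13685 and 13541 CPM, and the 3 lowest values of both genes. Without the 2 libraries farthest from the median, r was -0.83 for Sox3 and -0.85 for Sox21, with an adjusted permutation p of 0.0386 for each.

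Within LC1 the value with the neuronal sum was -0.87 for Sox3, with an exact permutation p of 0.0222, and -0.86 for Sox21, with an exact permutation p of 0.0514. Within RKI it was -0.92 for Sox3, with an exact permutation p of 0.00833, and -0.71 for Sox21, with an exact permutation p of 0.107. Over the 12 libraries Sox1 had r = 0.11 and Sox2 r = 0.13 with the neuronal sum, with adjusted permutation p of 0.777 for each. Within LC1 these were -0.31 for Sox1 and -0.27 for Sox2, and within RKI 0.65 and 0.75, with exact permutation p of 0.183 for Sox1 and 0.0972 for Sox2 in RKI. Sox4 had r = 0.66 with the neuronal sum, an adjusted permutation p of 0.0612, and 0.37 without A16.

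With the proneural sum, which holds Neurog2, Eomes and other genes of progenitors committed to neurons, Sox21 had r = 0.75, rho = 0.79 and an adjusted permutation p of 0.0315. It was 0.96 within LC1 and 0.84 within RKI, with exact permutation p of 0.00694 and 0.0625. Without the 2 farthest libraries it was 0.71 with an adjusted permutation p of 0.206, and without A16 it was 0.77 with an adjusted permutation p of 0.0188. Sox3 had r = 0.64 with an adjusted permutation p of 0.0725. With the proliferation sum Sox4 had r = -0.77, rho = -0.66 and an adjusted permutation p of 0.0258. It was -0.78 within LC1 and -0.85 within RKI, with exact permutation p of 0.0986 and 0.0486, and -0.57 without A16 with an adjusted permutation p of 0.196.

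**Figure D5:**
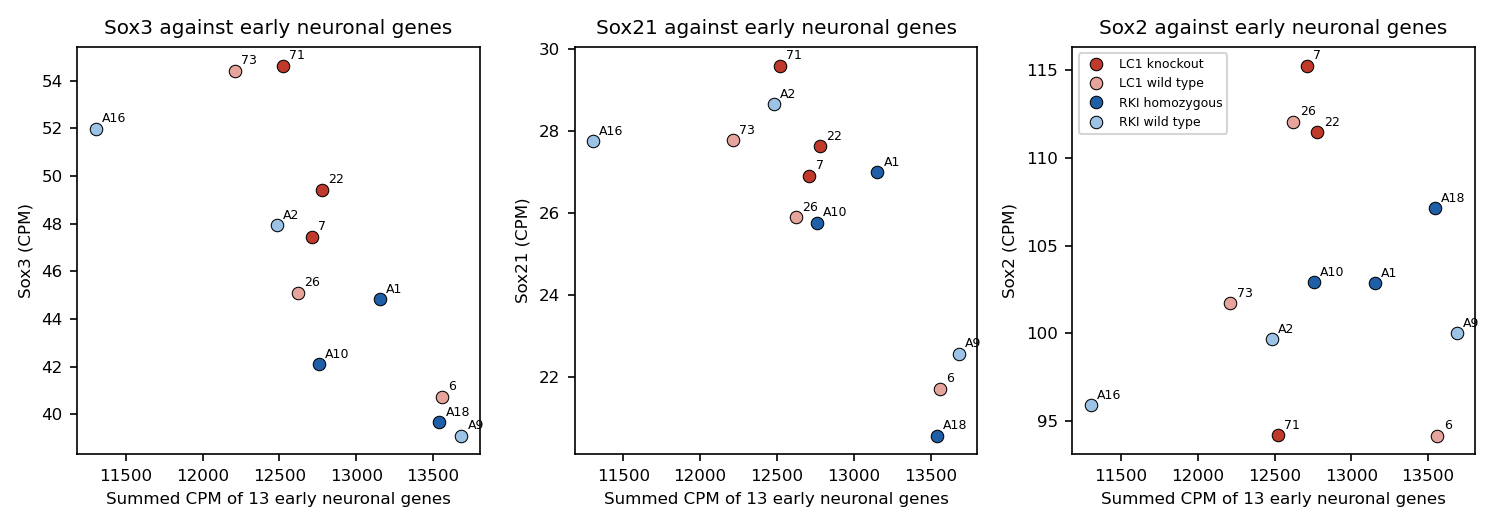
CPM of Sox3, Sox21 and Sox2 (vertical axes) against the summed CPM of 13 early neuronal genes, the SoxC target Tead2 among them (horizontal axis), each point 1 embryo with its number, coloured by group. Sox3 and Sox21 are low where the neuronal sum is high, with r of -0.80 and -0.73, and Sox2 has r of 0.13 over the 12 embryos.

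The genes around these factors were read from 4 lists, and 0 of their tested members passed by edgeR in LC1 or RKI. The 19 progenitor genes and POU partners of SoxB had 12 higher and 7 lower in LC1 knockouts, with a median log2 fold change of 0.06, against -0.00 over all genes. The 3 with the smallest p were Fabp7 of radial glia at -0.19, the Notch ligand gene Dll1 at 0.14 and Pou3f2 at 0.10. Of these genes 5 were higher and 14 lower in RKI homozygotes, median -0.06, against 0.00 over all genes, and Lhx2 had -0.19, the Notch target Hes1 -0.30 and Six3 0.16. The summed level of the 19 was 3367 to 3586 CPM in RKI homozygotes. In RKI wild types A2, A9 and A16 it was 3595, 3340 and 4014 CPM. The 10 proneural genes had 8 higher and 2 lower in LC1 knockouts, median 0.10, and 1 higher and 9 lower in RKI homozygotes, median -0.09. Insm1 had 0.28 and Btg2 0.14 in LC1, and Neurod1 had -0.15, Neurog1 -0.47 and Eomes -0.25 in RKI. The RKI effect minus the LC1 effect was below 0 for 10 of 10, median -0.22, and 0 passed by edgeR, with Insm1 at -0.30, Neurod1 at -0.22 and Neurog1 at -0.67.

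The 13 early neuronal genes and SoxC targets had 6 higher and 7 lower in LC1 knockouts, median -0.02, where Gap43 had -0.13, Stmn2 -0.09 and Dcx 0.08. In RKI homozygotes 12 were higher and 1 lower, median 0.08, where the neurofilament-type gene Ina had 0.11, Gap43 0.11 and the SoxC target Tead2, the 1 lower gene, -0.14. Their summed level was 12757 to 13541 CPM in RKI homozygotes. In RKI wild types A2, A9 and A16 it was 12481, 13685 and 11303 CPM, with A9 above all homozygotes and A16 lowest. Proliferation genes were lower in RKI homozygotes for 8 of 8, with summed levels of 833 to 870 CPM in RKI homozygotes. In RKI wild types A2, A9 and A16 the sums were 899.6, 764 and 1216 CPM, with A9 below all homozygotes and A16 far above. The part of proliferation genes in these values was not tested. The 5 tested midbrain and hindbrain markers were higher in RKI homozygotes for 5 of 5, median 0.81. Their summed levels were 18.1 to 31.0 CPM in RKI homozygotes and 12.3 to 20.1 CPM in RKI wild types. LC1 wild types had 26.9 to 35.3 CPM, and against them the markers were lower in RKI wild types for 5 of 5, median -1.15. By edgeR 4 of 5 had an unadjusted p under 0.05 in each comparison, against 1.92% and 3.89% of all genes, and 0 passed. The part of these markers was not tested either. Choroid plexus markers were lower in RKI homozygotes for 6 of 6, with summed levels of 698 to 725 CPM in RKI homozygotes and 747 to 834 CPM in RKI wild types. Erythroid markers were higher for 7 of 7, with 599.9 to 916 CPM in RKI homozygotes and 577 to 728 CPM in RKI wild types, and the part of both was not tested. In LC1 knockouts 7 of 7 meninges markers, 8 of 8 microglia markers, 6 of 6 choroid plexus markers and 5 of 5 midbrain and hindbrain markers were lower, with summed meninges levels of 926 to 1196 CPM in LC1 knockouts and 1087 to 1301 CPM in LC1 wild types, and their part was not tested.

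Of 12 other Sox genes 11 were tested, all but Sox15, and 0 passed by edgeR in LC1 or RKI. In LC1 knockouts 8 were higher and 3 lower, median 0.04, with Sox6 at 0.16, Sox8 at 0.16 and Sox5 at 0.09. In RKI homozygotes 4 were higher and 7 lower, median -0.06, with Sox14, the other SoxB2 gene, at 0.30, the radial glia gene Sox9 at -0.10 and the endothelial gene Sox7 at -0.15. Per length the glial Sox9 had a median of 21.4 RPKM and Sox5 20.1 RPKM, close to Sox1 and Sox3, while Sox14 had 2.55 RPKM and the oligodendrocyte gene Sox10 1.16 RPKM. The non-coding RNA Sox1ot, listed as Gm5607, lies on the strand of Sox1 and shares no exon with it in this annotation. It had 39.4 to 59.4 CPM, a log2 fold change of 0.10 in LC1 and 0.23 in RKI, with unadjusted p of 0.478 and 0.114, and r = 0.68 with Sox1 over the 12 libraries.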

How the data were processed

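Per the labels, RNA of 12 brains was extracted with TRIzol and made into libraries with an oligo-dT kit. Tools listed in the submitters' processing notes are Subread with featureCounts 1.4.5, the aligner STAR 2.0.4b, limma and edgeR. Which made what, on which build, annotation and strand setting, was not given in the sources used here. Deposited by the authors were whole-number counts per gene, RPKM per gene and transcript, and estimated counts per transcript, the last rounded before testing. The authors also deposited tables of log2 fold changes with p-values, whose RKI values were turned here to mutant minus wild type. The count table held 41264 rows for 40690 identifiers, and 574 repeated rows with identical counts were dropped.

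Gene counts were tested with edgeR 4.0.16 in R 4.3.3 (TMM, filterByExpr by group, robust quasi-likelihood fit, Benjamini-Hochberg over 16002 genes, threshold 0.05) in 1 fit of all 12 libraries, with a mean for each of 4 groups and sex as covariate (7 residual degrees of freedom). The common biological coefficient of variation was 6.94%. Log2 CPM used a prior count of 2. Correlations used permutation tests in numpy 2.4.6, exact over 6 libraries. Intervals are at 95%. DESeq2 1.42.0, limma-voom (limma 3.58.1), other scalings, no filter, no sex term, 1 experiment alone and leaving out each library were alternatives. On simulated counts the fit recovered 40% of genes changed by a fold of 1.25 in LC1 and 60% in RKI. At a fold of 1.5 it recovered 90% in LC1 and 98% in RKI. Changes below a fold of 1.25, such as those of the members, could therefore go uncalled. All 7 members were named in every comparison, of each list the 3 members with the smallest p (1 of them is not reported here), and the 5 genes with the highest r to Sox2 and to Sox11. Members and lists were chosen with earlier results of these data known.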

Additional observations from a re-analysis of the deposited data

How the results depend on the processing

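In every alternative run 0 of 7 members passed the threshold. No paired analysis was possible because the embryo numbers are not shared between groups and no label names a litter. Without the low-count filter the number of all genes past the threshold was 4 in LC1, 26 in RKI, 17 for the RKI effect minus the LC1 effect, 28 between wild types and 45 between sexes, where more genes of very low counts were tested. Leaving out 1 library, the number of all genes ran from 0 to 2 in RKI, from 0 to 1 for the RKI effect minus the LC1 effect and from 1 to 2 between wild types. Of the 21 pairs of members, 1 passed within LC1, 0 within RKI and 1 without the 2 farthest libraries. The 21 relations with lists were chosen after seeing the values. Of them 0 passed within LC1, 0 within RKI and 2 without the 2 farthest libraries, where fewer libraries were used. Some log2 fold changes turned sign, and the cause was not tested. By library totals Sox4 had -0.000557 in LC1 and -0.00732 in RKI, and Sox2 had 0.00186 between sexes. Without the filter Sox4 had -0.00115 in RKI, Sox21 0.00159 between wild types, and Sox1 0.00416 and Sox2 0.0103 between sexes. Without the sex term Sox4 had -0.000175 in RKI and -0.00840 between wild types, and Sox21 had 0.0682 between wild types. With RKI alone Sox4 had -0.00218. Between wild types Sox21 had 0.00174 by DESeq2's size factors, 0.00192 by DESeq2 and 0.000484 by limma-voom, and for the RKI effect minus the LC1 effect Sox4 had 0.00269 by limma-voom. Leaving out 1 library, with fewer samples, values of the members that turned sign ran as follows. In LC1 they ran from -0.0477 to 0.0481 for Sox4. In RKI they ran from -0.249 to 0.0433 for Sox21, -0.0872 to 0.0634 for Sox4, -0.0363 to 0.132 for Sox11 and -0.00876 to 0.0689 for Sox12. For the RKI effect minus the LC1 effect they ran from -0.200 to 0.00578 for Sox1, -0.0662 to 0.0778 for Sox2, -0.0902 to 0.0602 for Sox4, -0.102 to 0.0667 for Sox11 and -0.0882 to 0.0199 for Sox12. Between wild types they ran from -0.0751 to 0.0371 for Sox1, -0.110 to 0.0117 for Sox2, -0.224 to 0.0910 for Sox3, -0.0930 to 0.286 for Sox21, -0.110 to 0.0581 for Sox4 and -0.0246 to 0.0895 for Sox12. Between sexes they ran from -0.0666 to 0.0449 for Sox1, -0.0391 to 0.0292 for Sox2, -0.118 to 0.315 for Sox21, -0.133 to 0.0583 for Sox4, -0.0670 to 0.191 for Sox11 and -0.114 to 0.0282 for Sox12. Counting error was largest for Sox21, the member with the fewest counts, and its part in these turns of sign was not tested.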
